A study of Mus musculus with 16 samples.

Results

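The homeostatic microglia genes described here are 10 genes chosen by name, *P2ry12*, *P2ry13*, *Gpr34*, *Cx3cr1*, *Selplg*, *Siglech*, *Fcrls*, *Tmem119*, *Olfml3* and *Sall1*, and all 10 were present among the 18167 genes of the spinal cord table. RNA from the spinal cord of 16 mice, all labelled male, was sequenced, with 1 library per mouse. Mutant mice (C57BL/6N, with Tg(Prnp-PFN1\*G118V)838Kiaei/J) carried human profilin1 with the G118V change, which causes amyotrophic lateral sclerosis (ALS), and control mice (C57BL/6N, with Tg(Prnp-PFN1)850Kiaei/J) carried the human protein without it. Both transgenes were driven by the mouse prion protein promoter, which is active in many cell types, and no mouse was without a transgene. The groups were mutant young (MY, n = 3) and wild-type young (WY, n = 3) at 50 days of age, before symptoms, mutant old (MO, n = 5) at end-stage, and wild-type old (WO, n = 5). MO1 to MO5 were 198, 190, 245, 224 and 175 days old. WO1 to WO3 were 190 days old, whereas WO4 and WO5 were 294 days old, older than every MO mouse. MO4, MO5, WO4 and WO5 formed library batch 2 and the other 12 mice batch 1, so that among WO mice age and batch cannot be told apart.

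Microglia are the resident macrophages of the central nervous system. In healthy tissue they survey their surroundings with motile processes and express a set of receptors and a transcription factor program that sets them apart from other macrophages, called homeostatic. In models of neurodegeneration, isolated microglia are known to lower this set while they raise a second set, the disease-associated genes, and the number of microglia in the spinal cord rises in ALS models.

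Levels are given as log2(1 + FPKM) after the authors' batch adjustment, where FPKM is the number of fragments scaled by transcript length and library size. The number of reads behind each gene is unknown, so the spread between mice is the only error given. All 160 values of the 10 genes were above 1 on this scale. Some libraries stood apart from the rest. In MO5, *Xist*, expressed from the inactive X chromosome of females, reached 3.21 while no other mouse exceeded 0.37, and Y-linked *Ddx3y* stood at 1.95 while all others had 4.06 or more, values that do not match its male label. For the 10 genes, the counts called and the median fold changes between MO and another group are therefore given with and without MO5. Other results include MO5 unless stated. In WO4 the myelin gene *Mbp* was at 5.36, while the other 15 mice had 12.16 to 14.22. Hemoglobin *Hba-a1* was at 3.60 in MO1 and at 5.42 or more in the others, and neutrophil *S100a8* at 4.19 in WO2 and at most 2.39 in the others. *Prnp*, whose promoter drives both transgenes, was at 10.53 to 11.07 in MO and MY mice and at 8.52 to 8.82 in WO and WY mice. In the paper, quantitative PCR showed no significant change of *Prnp* between the genotypes. The paper proposes misaligned reads of transgene mRNA as a possible source, which was not tested here.

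In comparisons named first group vs. second group, the log2 fold change is the second group minus the first. A gene was called at a limma FDR of at most 0.05, adjusted over all genes, with a fold change of at least 1.5 (0.585 on the log2 scale). Fold changes are those of 1 + FPKM, and the added 1 makes them smaller than those of FPKM at low levels. In WO vs. MO, which sets end-stage mutants against old controls, 6 of the 10 genes were called higher in MO, against 4.08% of all genes, and 0 were lower. At the FDR alone, 8 were higher in MO, against 15% of all genes. In MY vs. MO, which compares mutants before symptoms with others at end-stage, 6 of the 10 were called higher in MO, against 4.11% of all genes, and 7 at the FDR alone, against 13.1%. These comparisons share the MO mice. The median log2 fold change of the 10 genes was 0.67 in WO vs. MO and 0.62 in MY vs. MO, where the median of all genes was 0.00 in both.

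The groups WO and MO did not overlap, with MO higher, for 7 of the 10 genes, against 11.3% of all genes, and MY and MO for 7, against 15.7%. For the same 7 genes, every one of the 5 MO mice was above every one of the 11 other mice, which held for 7.58% of all genes. The exceptions were *P2ry12*, *Siglech* and *Sall1*. Because whole spinal cord was sequenced, more or fewer microglia and more or less RNA per microglial cell cannot be told apart. Without MO5, 6 genes were called in WO vs. MO and 6 in MY vs. MO, with medians of 0.68 and 0.62. Of all genes, 742 and 746 were then called higher in MO, against 742 and 747 with MO5. In WO vs. MO 6 were called without MO1, 6 without WO2 and 5 without WO4, and in MY vs. MO 7 without MO1. Leaving out each mouse in turn, the calls over all genes in either direction were 786 to 924 in WO vs. MO and 805 to 1011 in MY vs. MO.

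**Figure D1:**
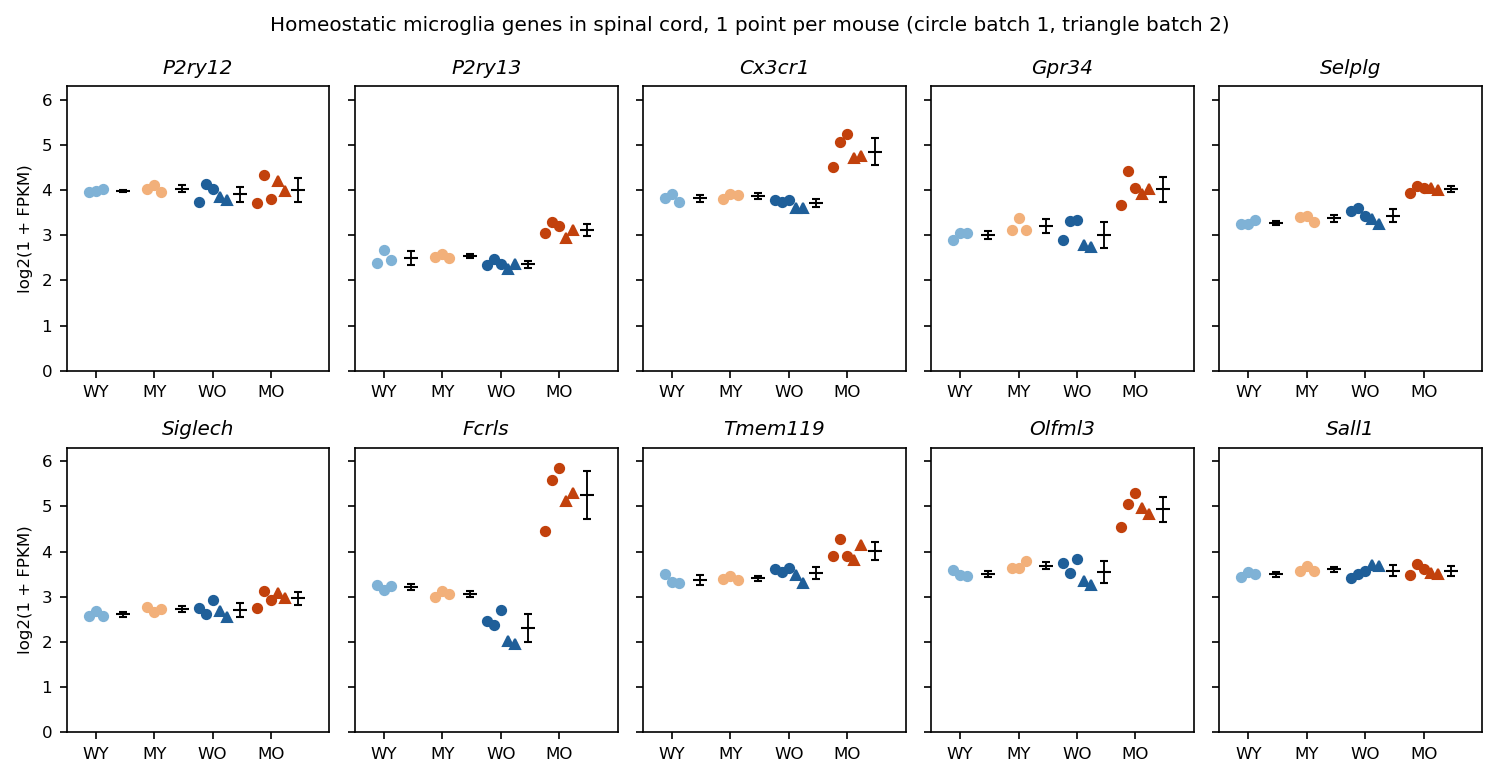
Level of each gene in each mouse, in log2(1 + FPKM), by group, with circles for batch 1, triangles for batch 2 and black bars for the mean with its SD (n = 3, 3, 5 and 5). The 5 MO mice lie above all others for 7 genes, and overlap them for *P2ry12*, *Siglech* and *Sall1*.

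The first of the members by role are the receptors of nucleotides and lipids. *P2ry12* encodes the ADP receptor with which microglial processes are drawn to injured cells. In MO1 to MO5 it was at 3.72, 4.34, 3.79, 4.19 and 3.97, and in WO1 to WO5 at 3.74, 4.13, 4.03, 3.84 and 3.79. It was at 4.02, 4.11 and 3.95 in MY and at 3.96, 3.98 and 4.01 in WY. The 4 groups overlapped, and the lowest and the highest of all 16 values were both MO mice, MO1 and MO2. The log2 fold change was 0.10 in WO vs. MO (SE 0.12, 95% interval -0.18 to 0.37, FDR = 0.623) and -0.02 in MY vs. MO (SE 0.14, interval -0.34 to 0.29, FDR = 0.934). The interval in WO vs. MO lies below the threshold of 0.585, so a rise of 1.5 times is outside it, as is a fall of that size.

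*P2ry13* encodes a related ADP receptor and lies next to *P2ry12* in the genome. It was at 3.05, 3.29, 3.19, 2.94 and 3.11 in MO1 to MO5. In WO1 to WO5 it was at 2.34, 2.47, 2.36, 2.25 and 2.36, in MY at 2.52, 2.59 and 2.50, and in WY at 2.39, 2.67 and 2.44. All MO mice were higher than all other mice, the nearest being WY2. In WO vs. MO *P2ry13* rose by 0.76 (SE 0.065, FDR = 2.74e-05), and the value was 0.583 in MY vs. MO (SE 0.076, FDR = 0.00117), which passed the FDR and fell just short of the fold threshold. Without MO5 the value in MY vs. MO was 0.585 and past the threshold, as it was without MO1 (0.599), MO4 (0.628) or MY2 (0.609).

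*Gpr34* encodes a receptor of lysophosphatidylserine, a lipid released from damaged cells. Its levels were 3.66, 4.42, 4.05, 3.92 and 4.02 in MO1 to MO5 and 2.90, 3.31, 3.33, 2.78 and 2.73 in WO1 to WO5. In MY they were 3.11, 3.38 and 3.13, and in WY 2.90, 3.05 and 3.06. MO1 was the lowest MO mouse and still above MY2, the highest of the others, and among WO mice the pair of batch 2 was lowest. *Gpr34* rose by 1.00 in WO vs. MO (SE 0.16, FDR = 0.000968) and by 0.81 in MY vs. MO (SE 0.15, FDR = 0.006).

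Receptors and ligands of cell contact come next. *Cx3cr1* encodes the receptor of fractalkine, a chemokine presented by neurons. It was at 4.50, 5.05, 5.25, 4.70 and 4.74 in MO1 to MO5 and at 3.79, 3.75, 3.78, 3.61 and 3.60 in WO1 to WO5. In MY it was at 3.80, 3.91 and 3.89 and in WY at 3.81, 3.90 and 3.74. The 11 other mice lay close together, all below the lowest MO mouse, MO1. In WO vs. MO the log2 fold change was 1.14 (SE 0.12, FDR = 9.98e-05), and in MY vs. MO it was 0.98 (SE 0.15, FDR = 0.00271).

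*Selplg* encodes P-selectin glycoprotein ligand 1, which binds selectins on vessel walls and blood cells. Its MO mice had the narrowest range of the 10 genes, 3.94 to 4.09, and lay above WO (3.26 to 3.60), MY (3.30 to 3.43) and WY (3.24 to 3.33). The log2 fold change was 0.65 in MY vs. MO (SE 0.049, FDR = 0.000212) and 0.588 in WO vs. MO (SE 0.064, FDR = 9.71e-05), just past the fold threshold. The call in WO vs. MO was lost when any of MO2 (0.57), MO3 (0.58), MO4 (0.58), WO4 (0.57) or WO5 (0.54) was left out, with the mice of batch 1 alone (0.50), and after quantile normalization (0.58), while the FDR stayed at or below 0.00612 in these fits.

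The receptors of the immunoglobulin superfamily behaved differently from each other. *Siglech* encodes a member of the family of sialic acid binding lectins that signals through the adaptor encoded by *Tyrobp*. It was at 2.74, 3.12, 2.93, 3.08 and 2.97 in MO1 to MO5 and at 2.76, 2.62, 2.94, 2.69 and 2.55 in WO1 to WO5. In MY it was at 2.78, 2.66 and 2.74 and in WY at 2.58, 2.68 and 2.58. MO1 lay inside the range of WO and of MY, and WO3 reached the level of MO3. The log2 fold change was 0.26 in WO vs. MO (SE 0.086, FDR = 0.0479), under the fold threshold, and 0.24 in MY vs. MO (SE 0.083, FDR = 0.066). Without MO5 the FDR in WO vs. MO was 0.0819. With each mouse left out in turn the FDR lay between 0.0143 and 0.113 in WO vs. MO and between 0.00845 and 0.204 in MY vs. MO, the lowest in both being without MO1.

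*Fcrls* encodes an Fc receptor-like scavenger receptor found on mouse microglia. It was at 4.45, 5.58, 5.84, 5.12 and 5.29 in MO1 to MO5 and at 2.46, 2.38, 2.70, 2.02 and 1.96 in WO1 to WO5. In MY it was at 2.99, 3.12 and 3.05 and in WY at 3.25, 3.14 and 3.25. The groups fell into 3 levels that did not overlap, with WO lowest, the young mice between and MO highest. Among WO mice the pair of batch 2, which was also the oldest, was lowest. MO had a mean FPKM of 39.2, compared with 4.03 for WO, 7.32 for MY and 8.27 for WY. *Fcrls* rose by 2.95 in WO vs. MO (SE 0.24, FDR = 2.32e-05) and by 2.20 in MY vs. MO (SE 0.27, FDR = 0.0009), the largest of the 10 genes in both. Without MO5 these values were 2.94 and 2.19.

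Of the remaining members, *Tmem119* encodes a transmembrane protein much used as a marker of microglia. It ranged from 3.82 to 4.27 in MO, from 3.30 to 3.63 in WO, from 3.37 to 3.47 in MY and from 3.30 to 3.51 in WY. MO lay above the other groups, with MO4 and WO3 the nearest pair. In MY vs. MO the log2 fold change was 0.60 (SE 0.1, FDR = 0.00393) and called, and in WO vs. MO it was 0.49 (SE 0.094, FDR = 0.00298), past the FDR only. The call in MY vs. MO was lost without MO2 (0.54), MO5 (0.56) or MY3 (0.58).

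*Olfml3* encodes a secreted olfactomedin-like glycoprotein. Its levels were 4.55, 5.05, 5.30, 4.96 and 4.84 in MO1 to MO5 and 3.75, 3.53, 3.84, 3.35 and 3.26 in WO1 to WO5. In MY they were 3.64, 3.64 and 3.79, and in WY 3.59, 3.48 and 3.45. Every MO mouse was well above WO3, the highest of the others. Its rise was 1.39 in WO vs. MO (SE 0.15, FDR = 8.4e-05) and 1.25 in MY vs. MO (SE 0.14, FDR = 0.00073).

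*Sall1* encodes the zinc finger transcription factor that maintains microglial identity. It was at 3.48, 3.73, 3.61, 3.52 and 3.50 in MO1 to MO5 and at 3.42, 3.50, 3.57, 3.70 and 3.69 in WO1 to WO5. In MY it was at 3.58, 3.68 and 3.56 and in WY at 3.44, 3.54 and 3.50. All groups overlapped except WY and MY, and no mouse stood out. The log2 fold change was -0.01 in WO vs. MO (SE 0.067, 95% interval -0.15 to 0.14, FDR = 0.964) and -0.03 in MY vs. MO (SE 0.064, interval -0.18 to 0.11, FDR = 0.752), so that these intervals hold no change of 1.5 times in either direction.

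Within batches, WO and MO were also compared in 3 against 3 mice of batch 1 and 2 against 2 mice of batch 2. The differences were 2.78 and 3.21 for *Fcrls*, 1.26 and 1.59 for *Olfml3*, 1.16 and 1.11 for *Cx3cr1* and 0.86 and 1.21 for *Gpr34*. They were 0.79 and 0.71 for *P2ry13*, 0.50 and 0.72 for *Selplg* and 0.43 and 0.59 for *Tmem119*. For these 7 genes the groups did not overlap in either batch, with MO higher, as was so for 12.9% of all genes. For the remaining genes they were -0.02 and 0.27 for *P2ry12*, 0.16 and 0.41 for *Siglech* and 0.11 and -0.18 for *Sall1*, so that the sign differed between the batches for *P2ry12* and *Sall1*. Batch 2 held no young mice, so MY vs. MO had no second batch.

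**Figure D2:**
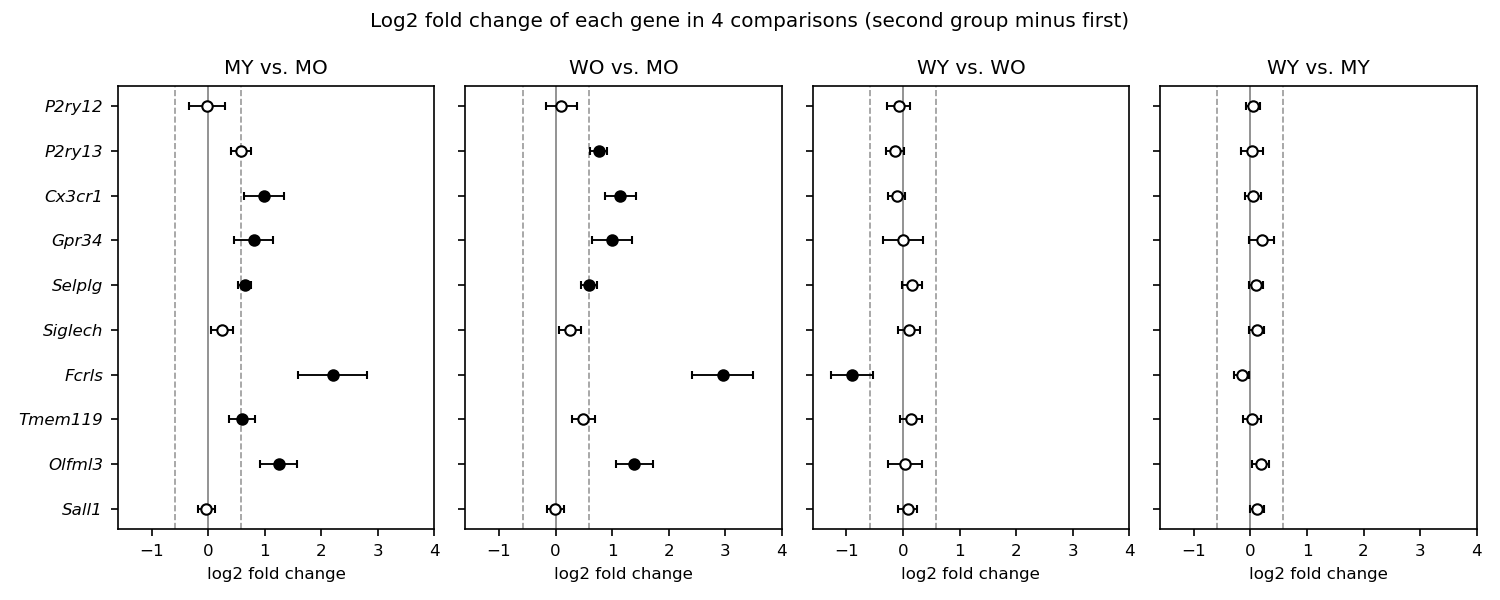
Log2 fold change of each gene, with 1 panel per pair of groups, with 95% intervals of the limma fit as bars, called genes filled and dashed lines at a fold change of 1.5 in each direction. *Fcrls* lies farthest to the right in both comparisons with MO (2.20 and 2.95) and is the only filled point in WY vs. WO (-0.91).

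In WY vs. WO, which compares young with older controls, 1 of the 10 genes was called, *Fcrls*, lower in WO, where 0.204% of all genes were called lower. All 5 WO mice (1.96 to 2.70) were below all 3 WY mice (3.14 to 3.25), with a log2 fold change of -0.91 (SE 0.16, FDR = 0.0461). In batch 1 alone, where the WO mice were 190 days old, it was -0.70 (SE 0.094, FDR = 0.0336). The call was lost when any mouse other than WO3 was left out (FDR between 0.0684 and 0.174). The other 9 genes were between -0.14 (*P2ry13*) and 0.16 (*Selplg*) with FDR of at least 0.44, and all 9 overlapped between WY and WO.

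In WY vs. MY, which compares the genotypes before symptoms, limma called 0 of the 10 genes and 0.0055% of all genes (1 gene). At an unadjusted limma p under 0.05 there were 2 of the 10, *Olfml3* with a log2 fold change of 0.19 (FDR = 0.659) and *Fcrls* with -0.16 (FDR = 0.666), and 1301 of all genes. MY did not overlap WY, with MY higher, for 3 genes, *Olfml3*, *Gpr34* and *Sall1*, against 6.15% of all genes, and with MY lower for *Fcrls*, against 7.52%. *Gpr34* (0.20) and *Sall1* (0.11) had FDR of 0.7 and 0.708. No 95% interval of the 10 genes reached the fold threshold, the widest reaching 0.42 (*Gpr34*).

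Whether old and young mice differed alike in mutants and in controls was tested on all 16 mice as the difference of differences, MO - MY less WO - WY. It was called for 5 of the 10 genes, all positive, against 4.65% of all genes, and 7 passed the FDR alone, against 10.5%. *Fcrls* had the largest value, 3.11 (SE 0.34, FDR = 6.43e-05), since it was higher in MO than in MY and lower in WO than in WY. *Olfml3* (1.21, SE 0.21), *Cx3cr1* (1.10, SE 0.18), *Gpr34* (0.80, SE 0.23) and *P2ry13* (0.73, SE 0.11) followed, with FDR of 0.00123, 0.000709, 0.0261 and 0.000412. *Gpr34* was no longer called in batch 1 alone (0.66, FDR = 0.112) or without MY1 (FDR = 0.0709), MY3 (FDR = 0.0671) or WY3 (FDR = 0.0571). *Selplg* (0.49) and *Tmem119* (0.46) passed the FDR only, at 0.00261 and 0.0334, and for *Tmem119* the FDR was 0.0525 without MO5. *P2ry12* was at 0.06 (SE 0.17), *Siglech* at 0.14 (SE 0.12) and *Sall1* at -0.12 (SE 0.097), with FDR of at least 0.468.

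FPKM is a level per length, so the genes can also be ordered within a group. In WY mice *P2ry12* had the highest mean level of the 10 genes (3.98), followed by *Cx3cr1* (3.82), *Olfml3* (3.50), *Sall1* (3.50) and *Tmem119* (3.38). *P2ry12* did not overlap *Cx3cr1* in WY (3.96 to 4.01 against 3.74 to 3.90), whereas *Olfml3* and *Sall1* did overlap. At the low end stood *Gpr34* (3.01), *Siglech* (2.61) and *P2ry13* (2.50). In MO mice *Fcrls* (5.26), *Olfml3* (4.94) and *Cx3cr1* (4.85) led with overlapping ranges. *Selplg* (4.02), *Gpr34* (4.01), *Tmem119* (4.01) and *P2ry12* (4.00) followed, again overlapping, then *Sall1* (3.57), *P2ry13* (3.12) and *Siglech* (2.97). In WO mice *Fcrls* was last (2.30), with *P2ry13* (2.36) next to it and overlapping it.

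The other genes of microglia and macrophages give a scale for these values. Of 16 general myeloid genes, which are shared by microglia and other macrophages, all 16 were called higher in MO in both comparisons, with median log2 fold changes of 1.91 in WO vs. MO and 1.85 in MY vs. MO. *Cd68*, a lysosomal protein, was at 3.22 in WO vs. MO, the complement gene *C1qa* at 2.82, *Tyrobp* at 2.69 and *C1qc* at 2.60. Of 24 disease-associated microglia genes, 20 were called higher in both comparisons, led in WO vs. MO by *Cst7* (4.78), *Lyz2* (4.64), *Gpnmb* (4.39) and *Clec7a* (4.11). The adjusted values of *Cst7* were below 0 in WO4 (-0.41) and WO5 (-0.12), which adds to its fold change. Of 27 other microglial identity genes, 13 were called higher and 1 lower in WO vs. MO, and 12 and 1 in MY vs. MO, with medians of 0.58 and 0.47. Among those higher in WO vs. MO were *P2ry6* (1.43), *Csf1r* (1.28) and *Cd33* (1.18). *Crybb1*, the gene called lower, was at -0.71 (FDR = 0.0019). At the FDR alone, 18 of the 27 were higher and 3 lower in MO, in WO vs. MO and likewise in MY vs. MO. The largest medians were thus those of the general and the disease-associated lists, and the 10 homeostatic genes had a median near that of the other identity genes.

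Each member was next set against the mean of the 16 general myeloid genes in the same mouse, as a difference of log2(1 + FPKM) and without a test. That mean was 5.25, 5.69, 5.90, 5.13 and 5.26 in MO1 to MO5 and between 3.10 and 3.65 in the other mice. Because the reference was higher in MO than in WO by 2.03, most genes are lower relative to it in MO. Relative to it, 9 of the 10 genes were lower in every MO mouse than in every other mouse, against 98.6% of all genes, so that this count does not set the members apart. A reference shifts all genes by the same amount, so their order is that of the plain fold changes in WO vs. MO. *Sall1* differed most between MO and WO (-2.03), followed by *P2ry12* (-1.93), *Siglech* (-1.77), *Tmem119* (-1.53), *Selplg* (-1.44) and *P2ry13* (-1.27). *Gpr34* (-1.03), *Cx3cr1* (-0.88) and *Olfml3* (-0.64) differed less. The exception was *Fcrls*, which relative to the same mean was higher in MO than in WO by 0.92 without overlap, and overlapped MY.

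With another reference all values shift together. Relative to *Csf1r*, the receptor on which microglial survival depends, 6 genes were lower in every MO mouse than in every WO mouse, against 96.9% of all genes, 1 was higher (*Fcrls*, 1.67) and 3 overlapped, *Gpr34* (-0.28), *Cx3cr1* (-0.14) and *Olfml3* (0.11).

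**Figure D3:**
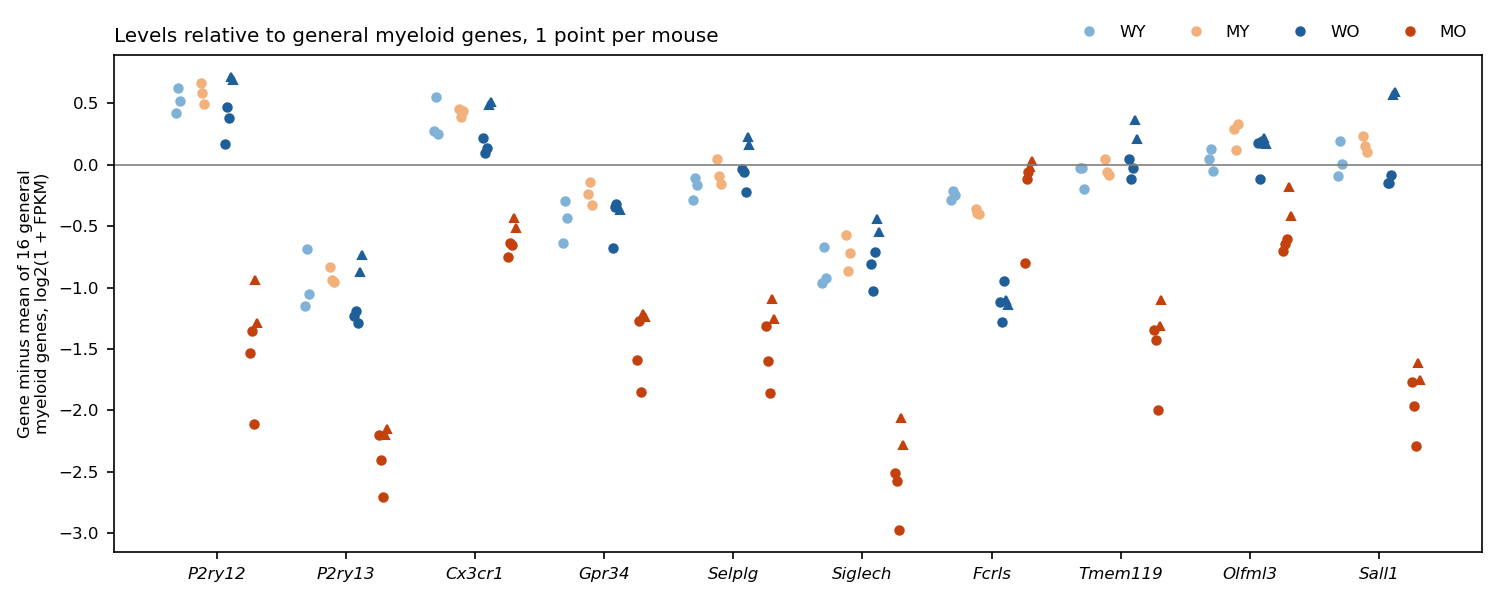
Each gene minus the mean of 16 general myeloid genes in the same mouse, in log2(1 + FPKM), 1 point per mouse, with circles for batch 1 and triangles for batch 2. For 9 genes the 5 MO mice lie below all others, as they do for 98.6% of all genes, and for *Fcrls* all of them lie above the WO mice and all but MO1 above the young mice.

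Signals known to maintain the homeostatic state were read from 16 genes of transforming growth factor beta (TGF-β) and CSF1 receptor signaling. In both WO vs. MO and MY vs. MO, 6 of the 16 were called higher and 0 lower. The ligand *Tgfb1* was at 1.08 in WO vs. MO, its receptors *Tgfbr1* at 1.10 and *Tgfbr2* at 0.87, and *Nrros*, which presents TGF-β on microglia, at 0.70. *Csf1r* was at 1.28 and its ligand *Csf1* at 0.68, while the other ligand, *Il34*, was at 0.09 (FDR = 0.27). Of the intracellular mediators, *Smad3* was at 0.36 (FDR = 0.0035), and *Smad2* (-0.01), *Smad4* (0.03) and the inhibitor *Smad7* (-0.20) did not pass the FDR.

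Of 10 ligands and partners of the members, 3 were called higher in WO vs. MO and 0 lower. *Tyrobp* and *Hcst*, adaptors of immune receptors, were at 2.69 and 1.37, and *Entpd1*, which breaks down the extracellular ATP and ADP that P2Y receptors sense, at 0.66. *Cx3cl1*, the fractalkine gene itself, was at -0.29 (FDR = 0.026) and so lower in MO at the FDR but not by 1.5 times, with a mean level of 5.90 in MO and 6.19 in WO. *Nt5e* was at -0.06, and *Abhd16a* and *Abhd12*, enzymes that make and degrade lysophosphatidylserine, were at -0.07 and 0.13. *Bmp4* was at -0.04 in WO vs. MO. The selectin gene *Sele* had a mean level of 0.01 in MO, at the floor of the scale, and *Selp* was not in the table.

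Relatives of the members showed whether the rise ran through whole families. Of the 24 found (*Fcrl5* was not in the table), 6 were called higher in WO vs. MO and 0 lower. Among P2Y receptors, *P2ry6*, a UDP receptor, was at 1.43, whereas *P2ry1* (-0.25), *P2ry2* (0.31) and *P2ry14* (0.02) did not reach the fold threshold, and *P2ry4* and *P2ry10* were at mean levels of at most 0.03 in all groups. Among sialic acid binding lectins, *Cd22* (1.56), *Siglecf* (1.28), *Cd33* (1.18) and *Siglec1* (1.07) were called and *Siglece* (0.06) and *Siglecg* (-0.01) were not. Thus 4 lectin genes related to *Siglech* were called where *Siglech* itself was not. The adjusted values of *Cd22* were below 0 in WO4 (-0.11) and WO5 (-0.07). Of the Fc receptor-like genes, *Fcrl1* was at 0.59 and called, from a mean level of 0.14 in WO to 0.74 in MO, and *Fcrla* (-0.02) and *Fcrlb* (-0.19) were not. *Sall2* (-0.10), *Sall3* (0.21), *Sall4* (0.02), *Olfml1* (-0.06), *Olfml2a* (0.01), *Olfml2b* (0.13) and *Gpr171* (0.05) were not called.

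Other cells of the tissue were read from marker lists, with summed levels in FPKM. Of 12 markers of border-associated macrophages, 2 were called higher in WO vs. MO, *Ms4a7* (1.90) and *Siglec1* (1.07), and 7 were higher at the FDR alone, with 3 called in MY vs. MO. Their summed level was 11.2, 10.4, 16.1, 6.83 and 11.8 in MO1 to MO5, 4.03, 4.54, 4.65, 3.39 and 2.68 in WO1 to WO5, and between 3.17 and 4.47 in the young mice. By mean level *Ms4a7* (1.99) was the most abundant in MO and *Stab1* in the other groups. The defining markers had mean levels of 0.50 in MO and 0.27 in WO for *Mrc1*, 0.42 and 0.18 for *Lyve1*, and 0.41 and 0.41 for *Cd163*. *Mrc1* (FDR = 0.00343) and *Lyve1* (FDR = 0.0109) rose in WO vs. MO by less than the threshold on the scale of 1 + FPKM, with mean FPKM of 0.210 in WO and 0.413 in MO for *Mrc1* and 0.133 and 0.341 for *Lyve1*. *Mrc1* was higher in all MO mice than in all others. *Siglec1* was below 0 in WO4 and WO5 and *Ms4a7* in WO5. Of 7 monocyte markers, limma called 0 in WO vs. MO, 2 were higher at the FDR alone, *Ms4a4c* and *Vcan*, and the sum was 10.9, 9.26, 8.56, 8.42 and 10.3 in MO1 to MO5, 7.09, 7.48, 6.21, 6.81 and 6.11 in WO1 to WO5 and between 7.74 and 9.21 in the young mice. *Vcan*, which other cells express too, was the most abundant, while the defining monocyte markers *Ccr2* (0.10) and *Ly6c2* (0.24) were near 0 in MO. *Ms4a4c* was at 0.30 to 0.57 in MO and at most 0.17 in the others, with a log2 fold change of 0.43 (FDR = 0.000191), and a mean FPKM of 0.386 in MO and 0.032 in WO, where the added 1 keeps it under the threshold. It was below 0 in WO4, as *Plac8* was in WO5. Of 7 neutrophil markers, 0 were called, with *S100a8* or *S100a9* the most abundant and *Ngp* and *Mmp8* at or below 0 in some mice. The neutrophil sum was 7.91, 8.46, 1.10, 4.78 and 0.914 in MO1 to MO5, 8.55, 37.5, 3.52, 7.39 and 7.06 in WO1 to WO5 and between 1.32 and 6.34 in the young mice. Of 3 lymphocyte markers, 0 were called, and their sum was at most 0.40 in any mouse.

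Among the markers of nervous tissue, 3 of 6 for astrocytes were called higher in WO vs. MO, *Gfap* (1.60), *Aqp4* (0.83) and *Aldh1l1* (0.69), and 5 were higher at the FDR alone. Their sum was 2705, 3490, 3134, 2587 and 2775 in MO1 to MO5 and 1222, 1244, 1329, 1383 and 1149 in WO1 to WO5, against 1512 to 1748 in the young mice, with *Gfap* the most abundant. Of 5 neuron markers, 4 were lower at the FDR and *Nefl* was called (-0.75), and the sum, led by *Snap25*, was 2290, 2457, 2243, 2671 and 2272 in MO1 to MO5, 3642, 3167, 3303, 3308 and 3472 in WO1 to WO5 and between 2784 and 3234 in the young mice. Of 4 motor neuron markers, 3 were lower at the FDR and *Chat* was called (-0.67), and the sum, led by *Slc18a3*, was 33.6, 31.2, 25.9, 30.2 and 30.6 in MO1 to MO5, 52.1, 43.1, 42.5, 43.9 and 47.1 in WO1 to WO5 and between 29.0 and 41.4 in the young mice. Of the oligodendrocyte markers, *Mbp* was the most abundant in all mice but WO4. The oligodendrocyte sum was 6561, 6988 and 7142 in MO1 to MO3 and 21332 and 20751 in MO4 and MO5. In WO1 to WO5 it was 9568, 8854, 8814, 4489 and 23150, and it lay between 13032 and 15388 in the young mice. None of the markers of these tissue lists was at 0 in any mouse. Of the oligodendrocyte precursor, endothelial, pericyte and fibroblast, and blood cell markers, limma called 0 of 2, 5, 5 and 2. At the FDR alone 4 endothelial markers were lower in WO vs. MO, *Cdh5* (-0.57), *Kdr* (-0.56), *Pecam1* (-0.50) and *Flt1* (-0.47). The most abundant genes of these lists were *Pdgfra*, *Cldn5*, *Dcn* and *Hba-a1*, and their sums lay between 11.6 and 14.2, 24.1 and 33.4, 18.0 and 21.4, and 11.7 and 64.4 in MO, and between 10.8 and 11.2, 30.4 and 48.3, 16.6 and 21.9, and 61.1 and 96.8 in WO. The part of all these markers in the results of the 10 genes was not tested.

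Whether the 10 genes varied together among mice of 1 group was described by Pearson's r of the deviations from the group means, over 16 mice and without a test. Over the 45 pairs of members the median r was 0.42, from -0.28 (*Selplg* and *Sall1*) to 0.92 (*Fcrls* and *Olfml3*), and it was above 0 in 42. *Fcrls*, *Olfml3* and *Cx3cr1* formed the closest group, with r of 0.89 for *Cx3cr1* and *Fcrls* and 0.83 for *Cx3cr1* and *Olfml3*. *P2ry12* was closest to *Gpr34* (0.77). Among the 12 mice of batch 1 alone the median was 0.50, and the pairs that moved most all held *Sall1*, though not every *Sall1* pair did. There *Gpr34* and *Sall1* had 0.96 in place of 0.23, and *Selplg* (0.40 in place of -0.28), *Olfml3* (0.40 in place of -0.11) and *Tmem119* (0.50 in place of -0.02) turned positive with *Sall1*. Of the pairs without *Sall1*, *Selplg* and *Olfml3* had 0.06 in place of 0.48, and *Selplg* and *Siglech* had -0.06 in place of 0.32. For *Fcrls*, *Olfml3*, *Cx3cr1*, *Tmem119* and *P2ry12* the SD was largest in MO, so that MO mice weigh most in their values.

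Of all 18167 genes, some of those whose deviations were most like each member's follow, with r over 16 mice and then over the 12 of batch 1. For *Cx3cr1* they were the chemokine gene *Ccl3* (0.94 and 0.96), *Npnt* (0.94 and 0.93) and *Dhrs1* (0.94 and 0.95). For *Fcrls* they were *Slco1a5* (0.96 and 0.97), *Lat2* (0.95 and 0.95) and *Pdcd1* (0.95 and 0.96), and for *Olfml3* they were *Emp3* (0.95 and 0.96), *Pm20d1* (0.94 and 0.93) and *Pdpn* (0.94 and 0.99). These 3 members, which were the most alike, had different nearest genes. *P2ry12* was most like *Sep15* (0.95 and 0.94), *Sar1b* (0.93 and 0.97) and *Vps29* (0.93 and 0.96), and *P2ry13* like *Mfsd1* (0.87 and 0.88), *Slc6a6* (0.84 and 0.89) and *Ptger4* (0.84 and 0.81). *Gpr34* was most like *Smpdl3a* (0.93 and 0.92), *Tubb6* (0.90 and 0.90) and *Cetn3* (0.90 and 0.93). None of the 30 nearest genes belonged to the lists above. Those lists hold only a small part of all 18167 genes, so this says little about the members. The highest r was lower for *Selplg* (*Zfp781*, 0.86 and 0.92), *Siglech* (*Mnd1*, 0.90 and 0.93) and *Sall1* (*Spata13*, 0.90 and 0.79) than for *Fcrls*. Next in line were *Ugdh* and *Dnajb9* for *Selplg*, *Xrcc5* and *Grpel1* for *Siglech*, and *Fbxo10* and *Ddit4l* for *Sall1*. Among those most like *Tmem119* were *Bdnf* (0.86 and 0.80) and *Tead2* (0.83 and 0.85). Of the genes named, *Slco1a5* (mean level 0.07) and *Zfp781* (0.27) were lowest, near the floor of the scale.

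By position, 4 of the 10 genes lie on chromosome 3, in GENCODE M21 coordinates on GRCm38. *P2ry13* (chr3:59207892-59210882, minus strand) and *P2ry12* (chr3:59216272-59262871, minus strand) are 5389 bases apart, inside *Med12l* on the opposite strand. *Fcrls* lies at chr3:87250758-87263738 and *Olfml3* at chr3:103722222-103738001, both on the minus strand and with no overlapping gene. *Tmem119* (chr5:113793729-113800516) and *Selplg* (chr5:113818536-113832644) are also neighbours, 18019 bases apart on the minus strand. *Gpr34* (chrX:13632089-13640858, plus strand) lies inside *Cask*, which has the opposite strand and with which it shares no exon. *Siglech* lies at chr7:55768178-55778925 on the plus strand and *Sall1* at chr8:89027235-89044162 on the minus strand. *Cx3cr1* is annotated at chr9:119901616-120069879 on the minus strand, a span that holds several other genes in its introns.

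Exons of *P2ry12* overlap exons of *Med12l*, and those of *Cx3cr1* overlap exons of *Gm33858*, on the opposite strand in both cases. The library kit keeps strand, but the strand setting of the authors' quantification is not given in the sources used here, so reads of these pairs may not have been told apart. *Med12l* was at a mean level of 2.25 in MO and 2.56 in WO, with a log2 fold change of -0.31 (FDR = 0.0057). The neighbours *P2ry13* and *P2ry12* differed in how they stood to each other across groups. Their difference of levels, *P2ry13* minus *P2ry12*, was -0.67, -1.05, -0.60, -1.26 and -0.86 in MO1 to MO5 and between -1.67 and -1.31 in the 11 other mice, without overlap. For *Tmem119* minus *Selplg* the difference was between -0.22 and 0.17 in MO and between -0.05 and 0.25 in the others, and overlapped. Neither difference was tested.

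Promoters of the members were read from RefSeq (GRCm38.p6), as the 250 bases before each annotated start. The table matched 7 of the 10 genes, with 9 starts because *Sall1* has 3, and held no entry for *Gpr34*, *Selplg* and *Tmem119*. They were searched on both strands for GAGGAA and AGGAAGT, purine-rich letters with the GGAA core that transcription factors of the ETS family, among them PU.1 of macrophages, are known to bind. The letters AGGAA are common to both motifs, so matches can overlap. GAGGAA was found in 2 of the 9 promoters (*P2ry13* and *Fcrls*) and in 23.3% of all 32851 promoters of that length, and AGGAAGT in 3 (*P2ry12*, *Fcrls* and 1 of the 3 of *Sall1*) and in 7.69%. Either motif was found in 4 of the 9 and in 27.3% of all promoters. A match describes the letters only, and binding was not measured.

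The promoters of the neighbours *P2ry13* and *P2ry12*, of which the former was called higher in WO vs. MO and the latter was not, are shown with that of *Fcrls*, the gene with the largest change. They read 5′ to 3′ on the strand of the gene, the minus strand for all 3, and capitals mark the motif matches. The regions are chr3:59210883-59211132 for *P2ry13*, chr3:59262986-59263235 for *P2ry12* and chr3:87263525-87263774 for *Fcrls*.
P2ry13: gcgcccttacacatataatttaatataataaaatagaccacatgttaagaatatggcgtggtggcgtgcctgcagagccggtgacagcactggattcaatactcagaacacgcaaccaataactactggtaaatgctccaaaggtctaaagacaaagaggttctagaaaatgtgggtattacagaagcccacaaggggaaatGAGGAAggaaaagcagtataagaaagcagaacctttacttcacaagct
P2ry12: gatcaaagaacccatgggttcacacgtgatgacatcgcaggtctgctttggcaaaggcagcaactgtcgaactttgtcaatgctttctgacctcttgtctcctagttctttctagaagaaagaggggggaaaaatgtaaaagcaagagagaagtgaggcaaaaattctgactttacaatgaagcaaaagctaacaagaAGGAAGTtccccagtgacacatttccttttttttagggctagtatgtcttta
Fcrls: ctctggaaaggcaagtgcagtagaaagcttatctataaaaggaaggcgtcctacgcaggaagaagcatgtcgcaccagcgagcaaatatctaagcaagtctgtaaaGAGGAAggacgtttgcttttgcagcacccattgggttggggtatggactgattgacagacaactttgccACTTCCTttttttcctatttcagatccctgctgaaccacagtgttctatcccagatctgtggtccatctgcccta
The match of *P2ry13* is GAGGAA, 48 to 43 bases before the start, and that of *P2ry12* is AGGAAGT, 52 to 46 bases before it. *Fcrls* has GAGGAA 144 to 139 bases before its start and AGGAAGT on the opposite strand, read here as ACTTCCT, 75 to 69 bases before it. The genes that were called and those that were not are thus both found among the promoters with a match.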

How the data were processed

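The deposited table holds log2(1 + FPKM) values that the authors made with Trimmomatic, TopHat on mm10 and Cufflinks and adjusted for batch with parametric ComBat of sva. Genes with no FPKM in 8 or more mice had been removed. Tool versions, gene annotation, strand setting and ComBat covariates are not given in the sources used here. Adjusted values below 0 (915 in all) were kept in tests and set to 0 where FPKM was summed.

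Each comparison was fitted on its own groups with limma 3.58.1 in R 4.3.3 (lmFit, eBayes, 2-sided), and FDR is the Benjamini-Hochberg value over all 18167 genes. The procedure was tested on simulated data. Python 3.11.15 with pandas 2.3.3, NumPy 2.4.6, SciPy 1.17.1 and matplotlib 3.10.9 did the rest. Alternatives were batch 1 alone, batch as a term, all 4 groups in 1 fit, genes with a mean of at least 1, quantile normalization, a pseudocount of 0.1, an intensity trend, replicate number as a block, each mouse left out, and *Csf1r* as reference.

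All members and most ligands, partners and relatives are named. Of other lists up to 4 of the called genes with large changes in WO vs. MO are named, with most of those called lower. *Smad* genes, *Nrros*, *Csf1*, *Il34*, *Prnp*, *Xist*, *Ddx3y*, *Mbp*, *Hba-a1*, *S100a8*, *Ms4a4c*, the endothelial genes and the defining markers at low levels were picked after their values were seen. The members and lists were chosen with earlier results of these data known.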

Additional observations from a re-analysis of the deposited data

Results flagged for a closer look

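For 7 of the 10 genes the age effect differed between the genotypes, as tested on all 16 mice with limma at an FDR of at most 0.05 and with a positive difference, against 10.5% of all genes. Without MO5 they were 6, with *Tmem119* at an FDR of 0.0525, and *Gpr34* lost the FDR in batch 1 alone (0.112) and without MY1, MY3 or WY3. The difference, (MO - MY) - (WO - WY) in log2 units, was 3.108 for *Fcrls*, 1.205 for *Olfml3*, 1.096 for *Cx3cr1*, 0.8019 for *Gpr34*, 0.7259 for *P2ry13*, 0.4897 for *Selplg* and 0.461 for *Tmem119*. For *Fcrls* alone among them the 2 age effects, 2.20 in mutants and -0.91 in controls, were both called and opposite in sign, the latter call being lost when most single mice were left out. The groups differ in age as well as in disease stage, since WO4 and WO5 were 294 days old and no MO mouse was older than 245 days.

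In the 20 sets of 5 mice (10 genes in MO and in WO), 0 held a mouse far from the others by Dixon's ratio, where chance alone gives about 1 in 20. With 5 mice the ratio must pass 0.71, and mice low together, as WO4 and WO5 were for *Fcrls*, can hide each other. The sets also share the same mice, so this count cannot show that no mouse stood apart.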

How the results depend on the processing

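In MY vs. MO, WO vs. MO and the difference of the age effect, the members called stayed within 1.5 times of the counts above in all alternatives, and in WY vs. MY they stayed at 0. Leaving out each mouse in turn gave 5 to 7 members in MY vs. MO, 5 to 6 in WO vs. MO, 4 to 5 in the difference of the age effect, 0 to 1 in WY vs. WO and 0 to 0 in WY vs. MY. In WY vs. WO, where *Fcrls* is the member called, 0 were called with all 4 groups in 1 fit or with a pseudocount of 0.1 (FDR of *Fcrls* 0.0894 and 0.0796). Among single genes, 24 values lost their call, 8 gained it and 0 reversed, all of *P2ry13*, *Tmem119*, *Selplg*, *Gpr34* or *Fcrls*. With *Csf1r* as reference the relative levels of all genes shift by the same amount, and none changed direction without overlap. Batch 1 alone gave 7 members in MY vs. MO, 5 in WO vs. MO, 1 in WY vs. WO and 4 in the difference of the age effect.

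With the replicate number as a block, 7 members were called in MY vs. MO, 6 in WO vs. MO, 0 in WY vs. WO, 0 in WY vs. MY and 5 in the difference of the age effect. Nothing in the labels pairs mice by number. Correlations of same-numbered mice lay between 0.0853 and 0.177 in MY vs. MO, above those of other pairs (at most 0.0685), and overlapped those of other pairs in the remaining comparisons.

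With a pseudocount of 0.1 the calls over all genes were 1483 in place of 890 in MY vs. MO, 1529 in place of 836 in WO vs. MO and 1548 in place of 1020 in the difference of the age effect. In WY vs. WO they were 46, against 73 in batch 1 alone, 80 with batch as a term and 7 to 64 with a mouse left out. In WY vs. MY they were 1, and at most 5. Depth per gene is unknown and limits the precision of low genes, and the young groups hold only 3 mice each.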
